A study of Mus musculus with 2 samples.

Results

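Mir99a, Mirlet7c-1, Mir125b-2, Mir99b, let-7e, Mir125a, Mir100, Mirlet7a-2 and Mir125b-1 are the 9 hairpins of 3 paralogous microRNA clusters, each of which holds a hairpin of the miR-99/100 type, a hairpin of the let-7 type and a hairpin of the miR-125 type in this order. The members were taken by gene symbol, and they are 9 of the 1973 microRNA genes counted. All 9 had 10 or more counts in both pups. The let-7e hairpin was counted under Gm25927, a gene annotated on the strand opposite to it. Small RNA was sequenced from the whole forebrain of newborn mice (day 0 after birth, strain B6NCrl, sex not recorded), with no treatment or altered allele in the labels. The samples form 1 group of 2 biological replicates, numbered pup 3 and pup 1. The labels list the same donor record for both, which does not tell the animals apart. The spread given below is that between these samples. No comparison between conditions is possible.

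The 3 families act at the turn from proliferation to differentiation. The let-7 microRNAs accumulate as progenitor cells mature, repress growth genes and are held back by the RNA-binding proteins Lin28a and Lin28b, which bind let-7 precursors. The miR-125 microRNAs are the mammalian relatives of lin-4, known from Caenorhabditis elegans as a timer of larval stages, and they repress Lin28. The miR-99/100 microRNAs are known to repress Mtor and other genes of growth signalling. In flies the counterparts of the 3 families are made from a common transcript, and the clustering is kept in mammals.

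Sequencing gave 18798326 reads for pup 3, with 7678662 counted at microRNA genes, and 22470992 reads for pup 1, with 9037087 counted. Reads tallied as mapping to several places, 43.5% of the library of pup 3 and 43.0% of that of pup 1, are in no gene's count. A gene's count pools the 5′ arm (5p) and the 3′ arm (3p) of its hairpin. Values are given as counts per 1000000 reads assigned to genes (CPM). Of 11 brain microRNA hairpins listed as markers, 10 were in the tables and 9 had 10 or more counts in both pups. The summed level was 46120 CPM in pup 3 and 33535 CPM in pup 1. Most of it came from Mir137, at 33595 CPM in pup 3 and 24345 CPM in pup 1. Hairpins of tissue behind the forebrain summed to 148 and 196 CPM in pup 3 and pup 1, and liver Mir122 to 75.0 and 54.0 CPM. Muscle hairpins summed to 44.5 and 94.8 CPM, and 1 of the 5 listed had 10 or more counts in both pups. Mir1a-1, Mir133a-1 and Mir133a-2 were listed at 0 in both pups, as was Mir196a-1 of the tissue behind the forebrain. Marker counts also leave out reads mapping to several places, so a 0 does not show that a microRNA was absent. Endothelial Mir126a stood at 36865 CPM in pup 3 and 40491 CPM in pup 1, choroid plexus and multiciliated hairpins summed to 8550 and 11582 CPM, mural hairpins to 5175 and 5826 CPM and blood and microglial hairpins to 1073 and 803 CPM. The part of these other cells in the levels below was not tested. In a whole forebrain, fewer cells of a type and less RNA per cell cannot be told apart.

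The 5p arms are shown first because their shared seeds define the families and their single-base differences set which reads can be told apart. RefSeq (GRCm38.p6) held a 5p entry for 8 of the 9 members, and all lie on the plus strand. Capitals mark the seed, bases 2 to 8, and each sequence runs 5′ to 3′.
miR-99a-5p, Mir99a: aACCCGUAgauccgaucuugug
miR-100-5p, Mir100: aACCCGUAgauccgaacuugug
miR-99b-5p, Mir99b: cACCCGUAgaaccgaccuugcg
let-7c-5p, Mirlet7c-1: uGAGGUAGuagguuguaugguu
let-7e-5p, Gm25927: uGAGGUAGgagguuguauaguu
miR-125b-5p, Mir125b-1 and Mir125b-2: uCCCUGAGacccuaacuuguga
miR-125a-5p, Mir125a: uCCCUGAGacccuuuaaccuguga
The 5p arm of Mirlet7a-2 is shown in capitals within its hairpin (chr9:41536716-41536811), where the let-7a-5p sequence listed for Mirlet7a-1 was found unchanged.
Mirlet7a-2 hairpin: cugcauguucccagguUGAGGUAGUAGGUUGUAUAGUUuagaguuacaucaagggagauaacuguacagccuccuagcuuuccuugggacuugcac

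The arms of a family differ by few bases outside the seed. Counting from 1 at the 5′ end, miR-99a and miR-100 differ by U16A, and miR-99a and miR-99b by A1C, U11A, U16C and U21C. The arms of let-7c and let-7a differ by G19A, and those of let-7e and let-7a by G9U. The 5p arms of Mir125b-1 and Mir125b-2 are identical, and miR-125a shares their first 13 bases. Across 2202 annotated microRNA hairpins, the 5p arms of Mir99a, Mir100, Mir99b, Mir125a and let-7e each had a perfect match at 1 place. Those of Mirlet7c-1, Mirlet7a-2, Mir125b-1 and Mir125b-2 each had a perfect match at 2 places, the other copies being Mirlet7c-2, Mirlet7a-1 and the paired Mir125b hairpin. A read of such an arm fits both places equally well. With up to 1 mismatch allowed, the 5p arms of Mir99a and Mir100 matched 2 places each and that of let-7e 3. Those of Mir99b and Mir125a still matched 1. The rest of the genome was not searched.

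The 3p arms of all 9 members matched a single annotated place each. Those of the 4 members with a copied 5p arm are shown because they differ between the copies, with bases 2 to 8 in capitals.
let-7c-1-3p, Mirlet7c-1: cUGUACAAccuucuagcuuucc
let-7a-2-3p, Mirlet7a-2: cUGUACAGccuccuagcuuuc
miR-125b-1-3p, Mir125b-1: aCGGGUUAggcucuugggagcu
miR-125b-2-3p, Mir125b-2: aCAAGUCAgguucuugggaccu
Since arms are pooled in the counts, the share of 3p reads in these 4 genes could not be measured here.

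The clusters differ in length and setting (GENCODE M21, GRCm38). Mir99a (ENSMUSG00000065530.1, chr16:77598936-77599000), Mirlet7c-1 (ENSMUSG00000065557.2, chr16:77599657-77599750) and Mir125b-2 (ENSMUSG00000065472.1, chr16:77646273-77646343) lie in introns of the noncoding host gene Mir99ahg, on its strand, over 47408 nucleotides. The protein-coding gene Gm11146 spans Mir99a and Mirlet7c-1 on the other strand. Mir99a and Mirlet7c-1 are 656 nucleotides apart, and Mir125b-2 follows after a gap of 46522 nucleotides. Mir100 (ENSMUSG00000093011.1, chr9:41531425-41531504), Mirlet7a-2 (ENSMUSG00000092770.1, chr9:41536716-41536811) and Mir125b-1 (ENSMUSG00000093354.1, chr9:41581926-41582002) lie in introns of the noncoding genes Gm49317 and 3110039I08Rik, over 50578 nucleotides. Mir100 also overlaps an exon of Gm48742, a long noncoding RNA on the other strand, and Mir125b-1 an exon of the sense intronic gene Gm28119. The third cluster is compact, with 692 nucleotides inside the protein-coding gene Spaca6. There Mir99b (ENSMUSG00000065396.1, chr17:17830188-17830257) and Gm25927 (ENSMUSG00000092799.1, chr17:17830343-17830459) are intronic, and Mir125a (ENSMUSG00000065479.1, chr17:17830812-17830879) overlaps an annotated exon. Mirlet7e itself is annotated on the plus strand at chr17:17830352-17830444, inside the span of Gm25927, and no count was listed under its own identifier.

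**Figure D1:**
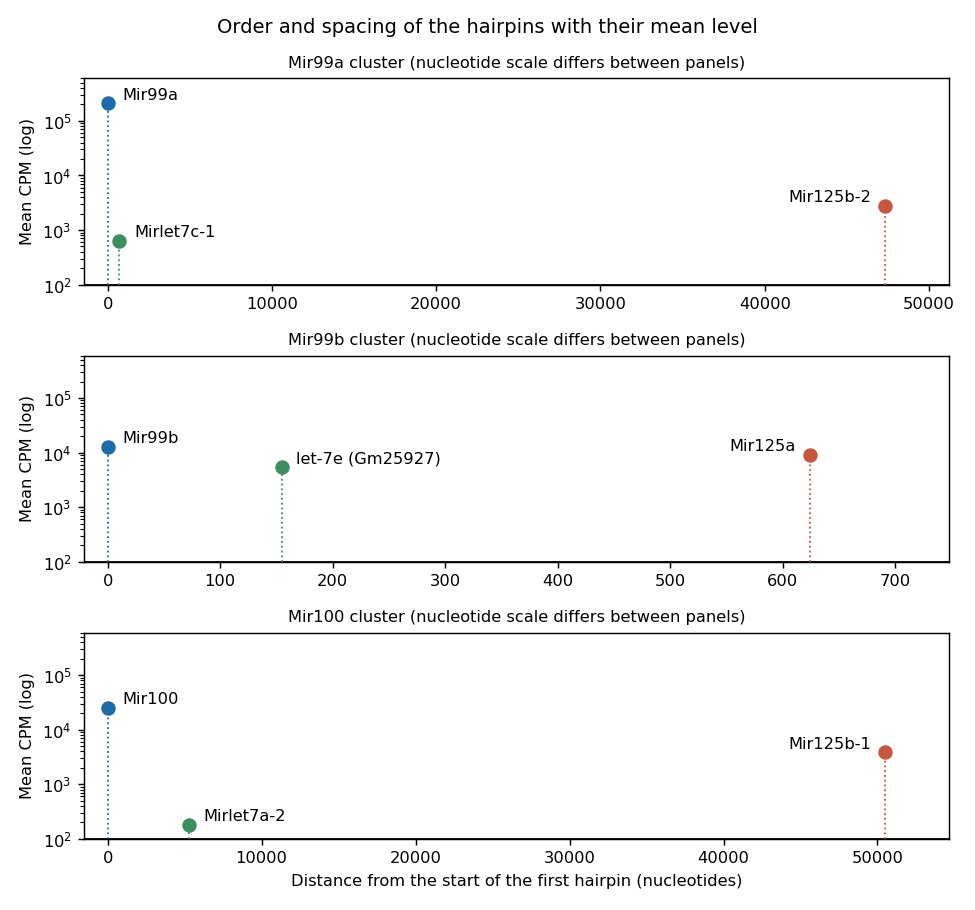
Mean level of each hairpin (CPM over 2 pups, log axis, points) at its distance in nucleotides from the start of the leading hairpin, 1 panel per cluster. Dotted lines only join a point to its position. The miR-99/100 hairpin (blue) has the highest CPM in each cluster and the let-7 hairpin (green) the lowest, with Mir99a at 208692 CPM and Mirlet7a-2 at 179.5 CPM. Counts leave out reads mapping to several places, and the 5p arms of Mirlet7c-1, Mirlet7a-2, Mir125b-1 and Mir125b-2 match 2 places.

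Together the 9 hairpins took 26.0% of assigned reads in pup 3 (95% Wilson interval 25.95 to 26.01) and 27.7% in pup 1 (27.65 to 27.71), a mean of 26.8% ± 1.20 (SD, n = 2). Intervals on counts cover counting error only, and repeated reads of a molecule could make them too narrow. The Mir99a cluster held 20.7% in pup 3 and 21.8% in pup 1, the Mir100 cluster 2.77% and 3.06%, and the Mir99b cluster 2.56% and 2.86%. Most of this came from Mir99a, since the other 8 members took 5.68% in pup 3 and 6.25% in pup 1. By family, the 3 miR-99/100 hairpins took 24.6% ± 1.22, the 3 miR-125 hairpins 1.56% ± 0.0943 and the 3 let-7 hairpins 0.627% ± 0.0763 (SD, n = 2). These shares leave out reads mapping to several places. The 5p arms of Mirlet7c-1, Mirlet7a-2, Mir125b-1 and Mir125b-2 match 2 places, so the families are not measured alike.

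The miR-99/100 hairpins had the highest counts of their clusters. In the Mir99a and Mir100 clusters the other members have 5p arms that match 2 places. Reads mapping to several places are in no count, so those members are not measured like the miR-99/100 hairpins. Mir99a had 203022 CPM in pup 3 and 214362 CPM in pup 1, the highest level of all genes in both pups, with a mean of 208692 ± 8018 CPM (SD, n = 2). Its nearest gene in mean level was Mirlet7g, at 71032 and 73153 CPM in pup 3 and pup 1. Mir100, whose 5p arm differs from that of Mir99a by U16A, had 23342 CPM in pup 3 and 26911 CPM in pup 1. Its mean was 25126 ± 2524 CPM (SD, n = 2), between Mir137 at 28970 CPM and Mir130a at 24560 CPM. Mir99b had 11412 CPM in pup 3 and 13773 CPM in pup 1, with a mean of 12593 ± 1669 CPM that lay between Mir26b at 12630 CPM and Mir135b at 12128 CPM. These 3 hairpins kept the order Mir99a, Mir100, Mir99b in each pup without overlap. All 3 had the lower CPM in pup 3, but scaled by trimmed mean of M values (TMM) Mir99a was the higher in pup 3, at a log2 ratio of 0.12 over pup 1, while Mir100 stood at -0.0040 and Mir99b at -0.070.

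The miR-125 hairpins came next in each cluster. Mir125a had 9433 CPM in pup 3 and 8644 CPM in pup 1, a mean of 9039 ± 558 CPM. Mir125b-1 had 4142 CPM in pup 3 and 3524 CPM in pup 1, a mean of 3833 ± 436 CPM, and Mir125b-2 had 2719 CPM and 2792 CPM, a mean of 2756 ± 51.4 CPM (SD, n = 2 each). The values of the 3 hairpins did not overlap between genes. The 5p arm of both Mir125b hairpins matches 2 places, and its reads tallied as mapping to several places are in neither count. The values of Mir125b-1 and Mir125b-2 are therefore uncertain and are not measured like that of Mir125a.

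The let-7 hairpins were the lowest of their clusters and the most unequal among themselves. The let-7e reads, counted at Gm25927, stood at 4729 CPM in pup 3 and 6205 CPM in pup 1, a mean of 5467 ± 1043 CPM. All 36312 reads of pup 3 and all 56072 reads of pup 1 at Gm25927 lay on the strand of Mirlet7e. The other 8 members had 0 reads on the opposite strand, which allows a share of up to 0.000153% of their reads in pup 3 and 0.000123% in pup 1. Mirlet7c-1 had 779 CPM in pup 3 and 475 CPM in pup 1, and Mirlet7a-2 had 226 CPM and 133 CPM, with means of 627 ± 215 and 179.5 ± 65.5 CPM (SD, n = 2 each). The values of the 3 hairpins did not overlap, but both low members have a 5p arm that matches 2 places. Reads of these arms tallied as mapping to several places are in no count. The counts of Mirlet7c-1 and Mirlet7a-2 are therefore uncertain and are not measured like that of let-7e.

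**Figure D2:**
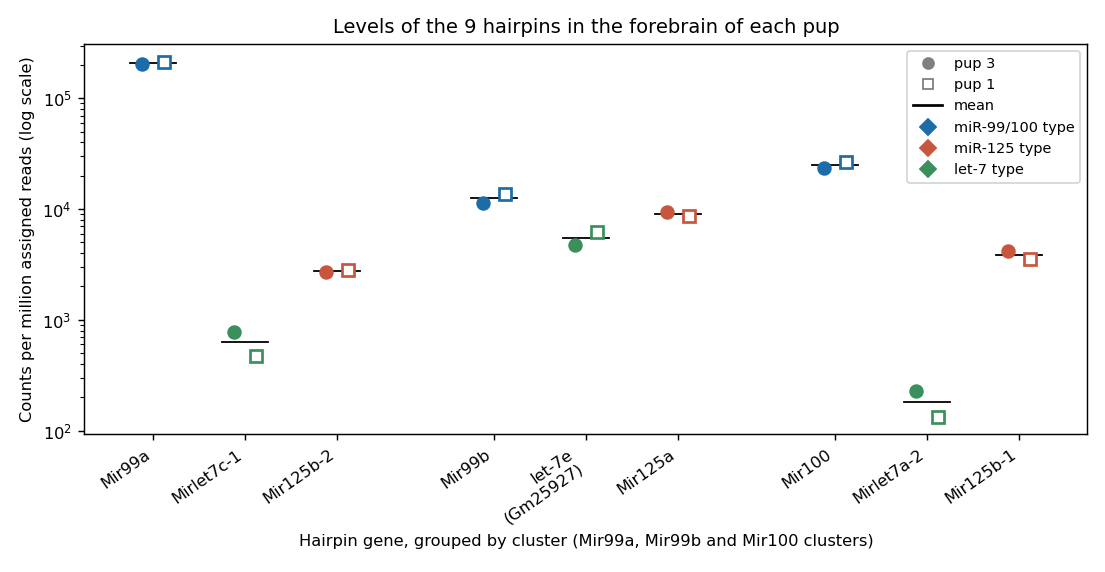
Level of each hairpin in pup 3 (filled circles) and pup 1 (open squares), in CPM on a log axis, with the mean as a line, for the 3 clusters from left to right. Levels span from 203022 CPM (Mir99a) to 226 CPM (Mirlet7a-2) in pup 3 and from 214362 to 133 CPM in pup 1.

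By mean CPM the order over all members was Mir99a, Mir100, Mir99b, Mir125a, let-7e, Mir125b-1, Mir125b-2, Mirlet7c-1 and Mirlet7a-2, and it was the same in each pup. The smallest gaps in mean level were 1.39-fold, between Mir99b and Mir125a and between Mir125b-1 and Mir125b-2, and the largest was 8.31-fold, between Mir99a and Mir100. No neighbours in this order had overlapping values, which with 2 pups is a description and not a test. A read of a mature microRNA spans the arm whatever the length of the hairpin, and the order was also taken per length. Per 100 nucleotides of annotated hairpin, Mir99a stood at 312342 CPM in pup 3 and 329788 CPM in pup 1, and Mirlet7a-2 at 235 and 139 CPM. On this scale the order was unchanged in pup 1, while in pup 3 let-7e at 4042 CPM was below Mir125b-1 at 5379 CPM, so that these neighbours overlapped between pups.

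The balance inside a cluster differed between the 3 clusters. In the Mir99a cluster, Mir99a made up 98.3% of the cluster's reads in pup 3 and 98.5% in pup 1, Mir125b-2 1.32% and 1.28%, and Mirlet7c-1 0.377% and 0.218%. In the Mir100 cluster, Mir100 made up 84.2% in pup 3 and 88.0% in pup 1, Mir125b-1 14.9% and 11.5%, and Mirlet7a-2 0.815% and 0.436%. The counts of the compact Mir99b cluster were the most even. Mir99b stood at 44.6% in pup 3 and 48.1% in pup 1, Mir125a at 36.9% and 30.2%, and let-7e at 18.5% and 21.7%. Each 5p arm of this cluster matches 1 annotated place, while the let-7 and miR-125 arms of the other clusters match 2. The part of reads mapping to several places in this balance was not tested. In both pups and all 3 clusters the order was miR-99/100, then miR-125, then let-7.

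The gap between the miR-99/100 and miR-125 hairpins was wide in the Mir99a cluster and narrow in the Mir99b cluster. The log2 ratio of Mir99a over Mir125b-2 counts was 6.22 in pup 3 and 6.26 in pup 1, a mean of 6.24 ± 0.029. That of Mir100 over Mir125b-1 was 2.49 in pup 3 and 2.93 in pup 1, a mean of 2.71 ± 0.31. That of Mir99b over Mir125a, neither of which has a second annotated copy of its 5p arm, was 0.27 in pup 3 and 0.67 in pup 1, a mean of 0.47 ± 0.28 (SD, n = 2 each). The values of the 3 clusters did not overlap. The 5p arm of Mir125b-2 and Mir125b-1 matches 2 annotated places, and its reads mapping to several places are in neither count. The 3 ratios are therefore not measured alike, and the part of such reads in these gaps was not tested.

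The gap to the let-7 hairpin was wider still in the clusters whose let-7 arm is copied. The log2 ratio of Mir99a over Mirlet7c-1 averaged 8.42 ± 0.56 and that of Mir100 over Mirlet7a-2 7.17 ± 0.68, against 1.21 ± 0.085 for Mir99b over let-7e. The miR-125 hairpin exceeded the let-7 hairpin by a log2 ratio of 2.18 ± 0.53 in the Mir99a cluster, 4.46 ± 0.37 in the Mir100 cluster and 0.74 ± 0.37 in the Mir99b cluster (SD, n = 2 each). In the Mir99a and Mir100 clusters, both hairpins of this ratio have 5p arms that match 2 places. Their reads mapping to several places are in no count, so the clusters are not measured alike. Per hairpin length the ratio of Mir99b over let-7e was 1.95, and it was 1.62 with the length of Mirlet7e itself. No ratio changed sign per hairpin length.

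The members fell apart by whether the 5p arm had a copy. The 5 members with a single annotated place ranged from 4729 to 203022 CPM in pup 3 and from 6205 to 214362 CPM in pup 1. The 4 members with 2 places ranged from 226 to 4142 CPM in pup 3 and from 133 to 3524 CPM in pup 1, below all 5 others. Together the 4 held 0.787% of assigned reads in pup 3, against 0.692% in pup 1. This grouping was made with the values known, and the part of reads mapping to several places in it was not tested.

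Between pups, all members but Mirlet7c-1 and Mirlet7a-2 were less than 1.5-fold apart. Ratios of pup 3 over pup 1 were scaled by TMM, and their 95% exact binomial intervals compare these libraries and not conditions. Mirlet7a-2, with 1734 counts in pup 3 and 1204 in pup 1, had a log2 ratio of 0.96 (0.86 to 1.07). Mirlet7c-1, with 5982 counts in pup 3 and 4290 in pup 1, had a log2 ratio of 0.92 (0.86 to 0.97). These 2 of 9 members were at least 1.5-fold apart, both higher in pup 3. Of all 310 genes that averaged at least 10 CPM, 32.9% were at least 1.5-fold apart, and 17.4% were so far higher and 15.5% so far lower in pup 3. The share of members is thus not set apart from that of all genes.

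The other 7 members, which include all 3 miR-125 and all 3 miR-99/100 hairpins, were less than 1.5-fold apart. Mir125b-1 had a log2 ratio of 0.43 (0.41 to 0.46) and Mir125a of 0.33 (0.31 to 0.34), and scaled by total counts they had 0.23 and 0.13. Mir125b-2 had 0.16 (0.14 to 0.19) and Mir99a 0.12 (0.120 to 0.126), but scaled by total counts these 2 had -0.038 and -0.078. Mir100 had -0.0040 (-0.013 to 0.0048), Mir99b -0.070 (-0.082 to -0.058) and let-7e -0.19 (-0.21 to -0.17). Under total counts they had -0.21, -0.27 and -0.39.

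The median log2 ratio was 0.16 over the 9 members and -0.031 over the 310 genes, and under total counts it was -0.038 over the members and -0.23 over the genes. The median of its size without sign was 0.19 for the members and 0.36 for the 310 genes. On TMM-scaled CPM the coefficient of variation between pups ran from 0.196% for Mir100 to 45.5% for Mirlet7a-2, with a median of 9.33% over the members and 17.5% over the 310 genes. On CPM from total counts, a scaling added after the values were seen, Mir100 stood at 10.04%, and the range was 1.87% for Mir125b-2 to 36.5% for Mirlet7a-2, with medians of 11.4% and 20.6%. The biological coefficient of variation from edgeR, fitted over 301 genes, was 0.304.

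**Figure D3:**
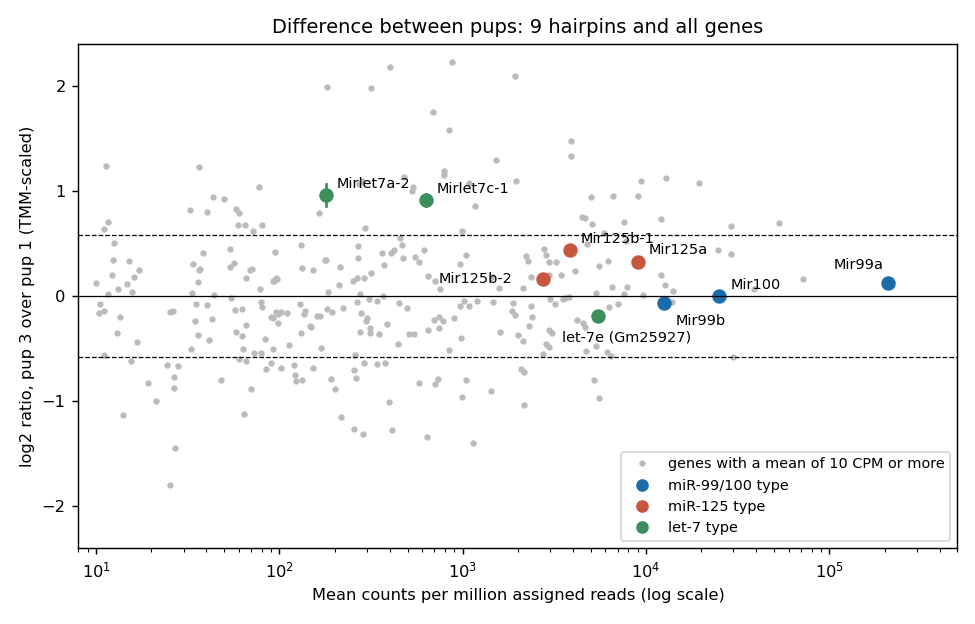
The log2 ratio of pup 3 over pup 1 (TMM-scaled) against mean CPM (log axis) for 310 genes (gray) and the 9 members (colours by family, bars are 95% exact binomial intervals, often smaller than the point). Dashed lines mark 1.5-fold. Mirlet7a-2 (0.96) and Mirlet7c-1 (0.92) lie above the upper line and the other 7 members lie between the lines.

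The same seeds occur outside the 3 clusters, and these relatives were set beside the members. No other mature sequence in the RefSeq table had the miR-99/100 seed. The miR-10 microRNAs, relatives of miR-100 from the Hox clusters, were low, with Mir10a at 47.5 CPM in pup 3 and 83.9 CPM in pup 1 and Mir10b at 94.3 and 96.2 CPM. The miR-125 seed was also held by Mir351, an X-linked microRNA, at 509 CPM in pup 3 and 399 CPM in pup 1, below all 3 miR-125 members. Mir6394 and Mir6367 hold that seed too and had 0 counts, which allows up to 0.391 CPM in pup 3 and 0.332 CPM in pup 1.

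The let-7 seed was held by 12 hairpins that averaged at least 10 CPM, the 3 members included. For 6 of them the 5p arm matched a single annotated place, and these averaged from 5467 CPM (let-7e) to 72093 CPM (Mirlet7g). For the other 6 it matched 2 places, and these averaged from 165 CPM (let-7f-1, counted at Gm24111) to 5056 CPM (Mirlet7f-2). Within the pairs of identical arms, the copy outside the cluster had the higher CPM. Mirlet7c-2 had 2075 CPM in pup 3 and 972 CPM in pup 1, and Mirlet7a-1 had 366 and 198 CPM. A read of the shared arm fits both copies, so these values do not compare the output of that arm between the copies. Mir7k, also with this seed, had 1 count in pup 3 and 14 in pup 1, and Mir1961 had 0.

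All 6 let-7 hairpins with a copied arm were at least 1.5-fold higher in pup 3, with log2 ratios from 0.68 to 1.30 and a median of 0.94. Of the 6 with a single place, 1 was, namely Mirlet7i at 0.70, and the range was -0.19 to 0.70 with a median of 0.24. Over all 310 genes, 17.4% were at least 1.5-fold higher in pup 3. Under total counts the numbers were 5 of 6 and 0 of 6, beside 38 of the 310 genes. The 2 copied miR-125 members were not 1.5-fold higher, at 0.16 and 0.43. Reads mapping to several places made up 43.5% of all reads in pup 3 and 43.0% in pup 1, and their part in these differences was not tested. This split was chosen after the values were seen, pairs of copies share their 5p sequence, and no test was made on it.

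**Figure D4:**
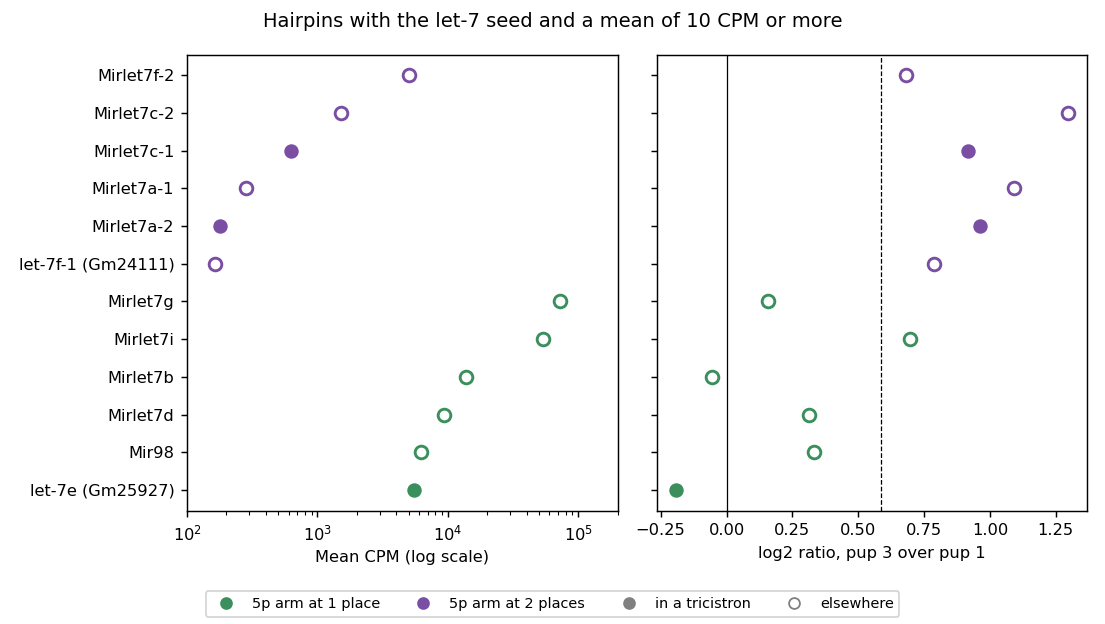
Mean CPM (left, log axis) and log2 ratio of pup 3 over pup 1 (right, TMM-scaled, dashed line at 1.5-fold) for 12 hairpins with the let-7 seed. Filled points are in the 3 clusters, open points lie elsewhere, and colour gives the number of annotated places that match the 5p arm. All 6 hairpins with 2 places lie at 0.68 or above on the right, and those with 1 place lie between -0.19 and 0.70.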

How the data were processed

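Small RNA of 2 newborn forebrains, pup 3 and pup 1, was analysed as 1 group. The deposited values are read counts per microRNA gene on mm10 with annotation M4, per the labels' text notes. Not given in the sources used here were the aligner and the counter. A table has a count column for both strands, which was used, and a column for each strand, which summed to it in every gene. The 4 tallies that name no gene stayed out of library sizes. Of 1973 identifiers, 1894 matched GENCODE M21. Sequences came from RefSeq (GRCm38.p6), and copies were perfect matches on either strand of annotated hairpins.

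CPM used assigned counts. Pup ratios used counts plus 0.5, scaled by TMM factors of edgeR 4.0.16 (0.933 for pup 3, 1.07 for pup 1) from 433 genes whose counts reached 10 in each pup. The biological coefficient of variation came from estimateDisp with an intercept only, over genes at 10 CPM or above in each pup. A member counted as apart at 1.5-fold. With 1 group there was no edgeR or DESeq2 test and no p-value. The scripts were tested on simulated data. Members, lists and settings were chosen with earlier results of these data known. Named genes are the members, all hairpins sharing their seeds, Mir10a, Mir10b, the genes next in level to each cluster's leading member and markers. Alternatives tried were DESeq2 1.42.0 size factors, total counts, strand columns, other denominators, filters, hairpin length and each pup alone. R 4.3.3 and Python 3.11.15 were used.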

Additional observations from a re-analysis of the deposited data

How the results depend on the processing

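With all library reads as denominator the 9 members took 10.9%, the Mir99a cluster 8.59%, the Mir99b cluster 1.098% and the Mir100 cluster 1.18%. With Mir99a left out of members and denominator these were 7.54%, 0.427%, 3.43% and 3.68%. Each pup alone gave 26.0% to 27.7%, 20.7% to 21.8%, 2.56% to 2.86% and 2.77% to 3.06%. Per hairpin length, the log2 ratio of Mir99a over Mir125b-2 was 6.37, of Mir99b over let-7e 1.95 and of Mir125a over let-7e 1.52, and with the length of Mirlet7e, chosen after seeing the data, the last 2 were 1.62 and 1.19. The strand columns changed no value.

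Each pup alone gave log2 ratios of 6.22 to 6.26 for Mir99a over Mir125b-2, 8.03 to 8.82 for Mir99a over Mirlet7c-1, 1.80 to 2.56 for Mir125b-2 over Mirlet7c-1, 0.27 to 0.67 for Mir99b over Mir125a, 1.15 to 1.27 for Mir99b over let-7e, 0.48 to 0.996 for Mir125a over let-7e, 2.49 to 2.93 for Mir100 over Mir125b-1, 6.69 to 7.66 for Mir100 over Mirlet7a-2 and 4.20 to 4.73 for Mir125b-1 over Mirlet7a-2.

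Under total counts the median log2 ratio of pup 3 over pup 1 was -0.038 for the members and -0.23 for all genes, where 38 genes were at least 1.5-fold higher and 73 lower, against 54 and 48 with TMM. Both members past 1.5-fold stayed past it under total counts and DESeq2 size factors. Of the let-7 hairpins with a single place, 0 were past it under total counts, a setting added after seeing the data. The biological coefficient of variation was 0.301 over genes with 1 CPM or more, 0.313 over those with 100 CPM or more and 0.314 under total counts. The cause of these changes was not tested. No paired analysis was possible because the samples form 1 group.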
